A study of Mus musculus with 12 samples.

Results

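Freshly sorted Treg cells were compared with anti-CD3 activated effector T cells in the spleens of C57BL/6-2Rbeta-WT/thymus transgenic mice, using all 6 arrays that carry this strain's label out of 12 in the series. Groups of 3 arrays were formed from the sample titles. The mice come from a cross of the transgene onto an IL-2 receptor beta deficient line, so both populations share the deficiency and the transgene, and the strain label places wild-type receptor beta in the thymus. The sources used here do not name the promoter that drives the transgene. The series also holds 3 Treg and 3 effector arrays of normal C57BL/6 mice, which served to show where the transgenic populations differed from normal ones.

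Each transgenic effector array held cells of 1 mouse, aged 15, 14 and 9 weeks for samples 1, 2 and 3. Whole spleen cells had been cultured with anti-CD3, which engages the T cell receptor complex, for 48 hours before CD4+ CD25hi cells were sorted, and no step that removes Treg cells before the culture is named in the labels. Each transgenic Treg array held a pool of mice, namely 4 mice aged 33 weeks, 8 mice aged 13 weeks and 3 mice aged 7 to 16 weeks, whose CD4+ CD25hi cells were sorted without culture. In the normal strain the effector mice were 10 to 14 weeks old with 1 mouse an array, and the Treg pools held 8 to 15 mice of 10 to 12 weeks. Sorted purity was 99.0% to 99.8% on the 6 transgenic arrays. The labels call the samples distinct biological replicates. Population is tied to culture, to pooling and to the provider's sample codes in both strains, so these cannot be told apart from cell type. In bulk RNA, fewer cells of a type and less RNA per cell cannot be told apart either.

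IL-2 drives T cells to grow and survive, and its receptor beta chain passes the signal on to JAK kinases and STAT5. Treg cells, which restrain immune responses, carry CD25, the receptor's alpha chain, at rest and depend on IL-2 in the periphery. Effector cells gain CD25 after activation, when T cells grow, divide, raise glycolysis and take up iron and other nutrients.

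The files do not pair probe sets with gene names, and the receptor gene, Foxp3 and the markers of other cell types were not analysed here. Named results come from the control probe sets of the array, whose names give the transcript: the transferrin receptor, Gapdh, pyruvate carboxylase, beta-actin, 18S ribosomal RNA and the B1 and B2 repeats. All other probe sets are given as counts, with a few identifiers. Values are on the log2 scale of GCRMA, the authors' background correction and normalization, on which a difference of 1 is 2-fold. A log2 value of 5 is the level used here for filtering, and a fold that starts below it depends on the background correction.

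The populations stood far apart on every array. Across 18271 tested probe sets the transgenic effector arrays correlated with one another at 0.965 to 0.991 and the transgenic Treg arrays at 0.978 to 0.985, while arrays of different transgenic populations correlated at 0.731 to 0.761. The C57BL/6 Treg arrays varied most. They correlated with one another at 0.9227 to 0.9773 and with the transgenic Treg arrays at 0.9295 to 0.9778. Their median SD per probe set was 0.30, against 0.16 to 0.25 in the other groups. Transgenic effector sample 3 carries a purification label that describes fresh spleen cells, although its title and source describe cultured cells. This array correlated with the other effector arrays of its strain at 0.965 to 0.969, with normal effector arrays at 0.953 to 0.961 and with transgenic Treg arrays at 0.731 to 0.757. It was kept. Values without it are given for some Tfrc and Actb probe sets and for 1435529_AT, 1449109_AT and 1416111_AT, and not for every result.

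**Figure D1:**
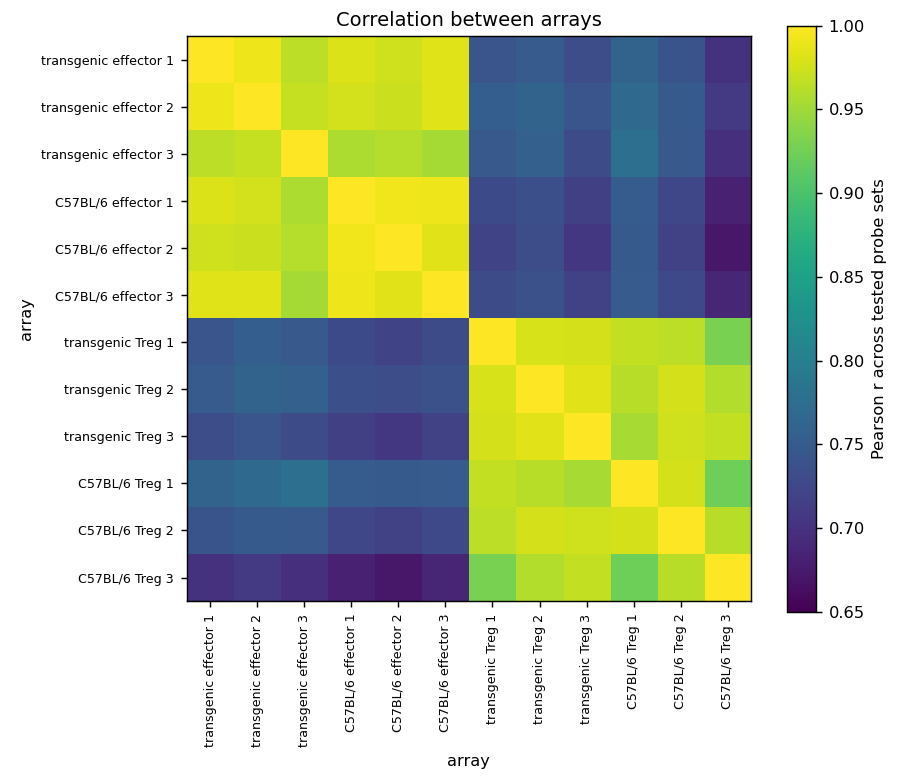
Pearson correlation between all pairs of the 12 arrays across the tested probe sets, both axes listing arrays by strain, population and sample number, with colour from 0.65 to 1. Transgenic effector and Treg arrays form separate blocks, with correlations of 0.731 to 0.761 between the blocks, and transgenic effector sample 3 lies in the effector block.

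Promoter windows are shown for Tfrc, Gapdh and Pcx, the 3 metabolic genes among the named control probe sets. The windows were chosen because the measured probe sets of these genes were lower in transgenic Treg cells. They are RefSeq sequences of build GRCm38.p6, each 300 bases long, from 250 before to 50 after an annotated transcription start, 5′ to 3′ along the gene. Tfrc lies at chr16:32608646-32608945 on the plus strand, Gapdh at chr6:125165724-125166023 on the minus strand and Pcx at chr19:4510222-4510521 on the plus strand. Capitals mark ACGTG on either strand, a form of the core of the hypoxia response element. They also mark CACGTG, the E-box bound by MYC, which contains ACGTG on both strands. Other forms of the core were not searched and are not marked.
Tfrc: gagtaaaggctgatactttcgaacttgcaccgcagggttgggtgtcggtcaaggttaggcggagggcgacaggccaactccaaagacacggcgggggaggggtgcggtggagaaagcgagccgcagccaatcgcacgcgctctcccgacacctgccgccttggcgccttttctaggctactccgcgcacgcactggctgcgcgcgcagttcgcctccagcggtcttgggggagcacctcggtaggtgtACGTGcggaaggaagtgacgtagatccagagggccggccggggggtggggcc
Gapdh: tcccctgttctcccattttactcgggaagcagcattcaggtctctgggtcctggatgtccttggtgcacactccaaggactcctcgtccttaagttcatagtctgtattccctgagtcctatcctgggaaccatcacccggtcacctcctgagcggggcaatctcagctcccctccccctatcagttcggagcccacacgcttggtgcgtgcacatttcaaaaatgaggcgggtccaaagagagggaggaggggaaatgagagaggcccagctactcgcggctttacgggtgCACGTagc
Pcx: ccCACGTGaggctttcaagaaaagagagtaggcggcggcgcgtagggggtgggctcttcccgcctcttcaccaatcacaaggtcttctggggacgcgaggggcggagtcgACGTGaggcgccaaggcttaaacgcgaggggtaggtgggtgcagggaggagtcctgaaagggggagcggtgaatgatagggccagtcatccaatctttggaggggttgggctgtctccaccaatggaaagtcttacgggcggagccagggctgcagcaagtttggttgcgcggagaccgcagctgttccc
The Tfrc and Gapdh windows held the ACGTG core once each. The Pcx window held it 3 times, counting both strands of its 1 E-box. The other listed window of Tfrc overlaps the one shown and holds the same match, and that of Pcx holds none. Of 32851 promoter windows of this length, 19.6% held ACGTG and 7.15% held CACGTG. The genes shown were chosen by their result, so their windows were not tested against these shares. The matches describe the letters of the windows and not binding.

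The transferrin receptor, Tfrc or CD71, brings iron into cells and is carried by dividing cells. Its 3′ probe set read 10.19, 9.76 and 8.02 on the transgenic effector arrays, against 6.13, 6.35 and 6.96 on the transgenic Treg arrays. All Treg arrays lay below all effector arrays, and effector sample 3 was the lowest of its group. The Treg minus effector difference was -2.85 ± 0.75 (standard error, limma adjusted p = 0.00547), 7.19-fold lower in Treg cells, and -3.50 without effector sample 3. The middle probe set read 8.17, 7.47 and 7.28 in effector cells, against 3.40, 3.36 and 4.54 in Treg cells (limma adjusted p = 3.53e-05). The 5′ probe set averaged 6.89 ± 1.04 in effector and 3.58 ± 0.30 in Treg cells (SD, n = 3, limma adjusted p = 0.00026). Its difference of -3.31 was -3.87 without effector sample 3. Treg arrays lay below log2 5 on the middle and 5′ probe sets. The effector means lay 6.25-fold and 3.70-fold above that level, and effector sample 3 read 5.77 on the 5′ probe set.

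Gapdh, the glycolytic enzyme that oxidises glyceraldehyde-3-phosphate, was also lower in transgenic Treg cells. Its 3′ probe set read 15.05, 15.00 and 14.85 in effector cells, against 13.62, 13.53 and 13.63 in Treg cells. The groups were tight and did not overlap, with a difference of -1.37 ± 0.10 (standard error, limma adjusted p = 2.05e-07), 2.59-fold lower in Treg cells. The middle and 5′ probe sets were 2.94-fold and 2.04-fold lower (limma adjusted p = 6.39e-07 and 0.000182). The 3′ minus 5′ difference of Gapdh, a reading of RNA integrity and amplification, was -0.0036, -0.011 and 0.21 on the effector arrays and -0.20, -0.21 and -0.43 on the Treg arrays (exact permutation p = 0.1, two-sided, the smallest that 3 against 3 can give). That of Tfrc was 2.44 ± 0.23 in effector and 2.90 ± 0.19 in Treg cells (SD, n = 3, exact permutation p = 0.2), and that of Actb 0.54 ± 0.25 and 0.60 ± 0.09 (SD, n = 3, exact permutation p = 0.8). The 5′ probe set of Tfrc read 3.44, 3.38 and 3.92 on the Treg arrays, below log2 5, so the Treg value for Tfrc depends on the background correction. All 3 Gapdh probe sets were lower in Treg cells. The part of RNA integrity and amplification in these results was not tested.

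Pyruvate carboxylase, Pcx, which makes oxaloacetate from pyruvate and so refills the citric acid cycle, was measurable on its 3′ probe set alone. That probe set read 5.74, 5.80 and 5.89 in transgenic effector cells, against 3.96, 3.81 and 3.67 in Treg cells. The groups did not overlap (difference -1.99, standard error 0.15, limma adjusted p = 3.26e-07), and the effector mean lay 1.75-fold above a level of log2 5. The other 3 Pcx probe sets averaged 2.38 to 3.93 in effector and 2.30 to 2.90 in Treg cells, below the filter in both.

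Beta-actin, Actb, is the main actin of the cytoskeleton. Its 3′ probe set read 15.45, 15.35 and 15.35 in transgenic effector cells, against 15.84, 15.67 and 15.80 in Treg cells, without overlap. The measured difference was 1.31-fold, higher in Treg cells (difference 0.39, standard error 0.089, limma adjusted p = 0.0023). The 5′ and middle probe sets differed by 0.32 and 0.24 and overlapped between the groups (limma adjusted p = 0.111 and 0.0925), but passed the test when each array was centred on its median (0.62 and 0.54, limma adjusted p = 0.00277 and 0.000916). Without effector sample 3 the uncentred differences were 0.16 and 0.16. The brightest probe set on the 12 arrays read 16.05 to 16.49, so Actb, like Gapdh in effector cells, lay near the top of the scale. Saturation, which would make such differences too small, was not tested.

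**Figure D2:**
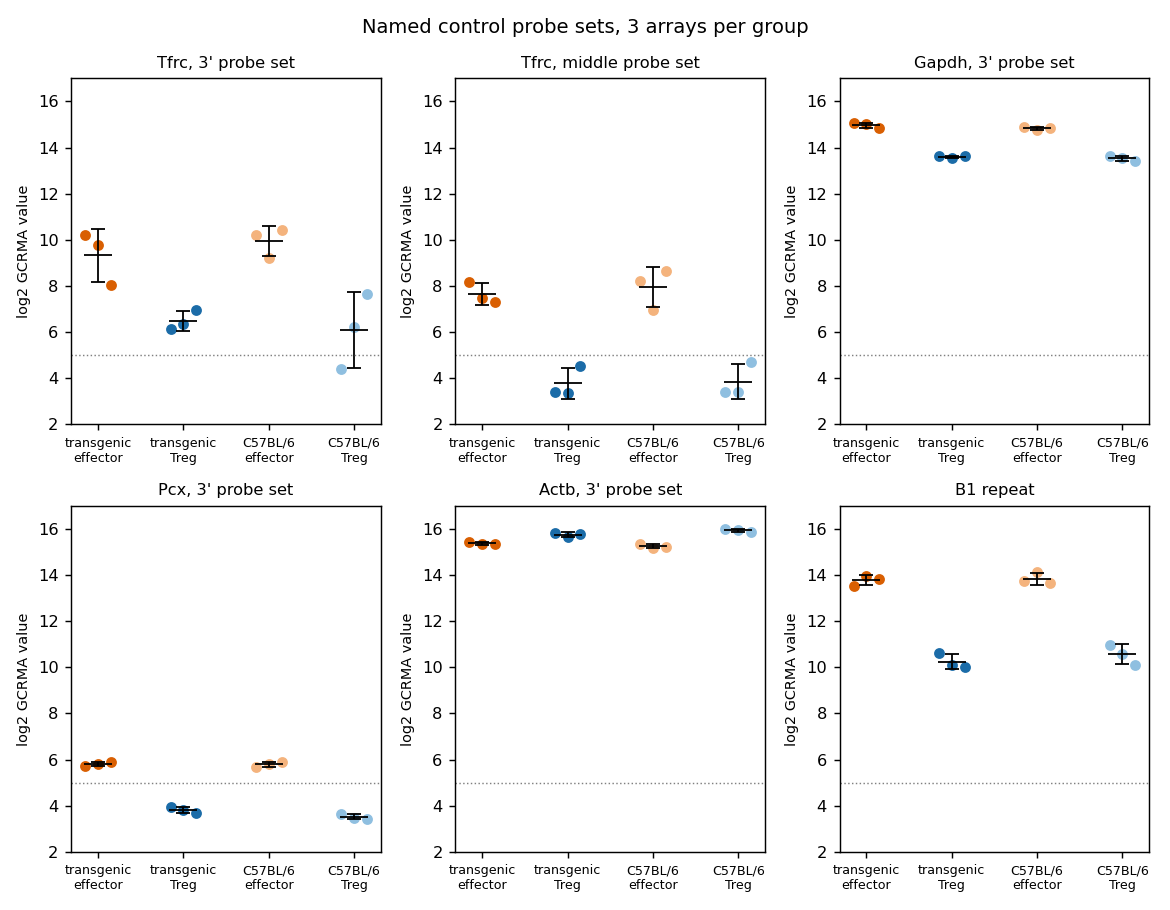
Log2 GCRMA values of 6 named control probe sets on each array (points), with the mean and SD of 3 arrays (bars), for effector and Treg cells of transgenic and C57BL/6 mice, and a dotted line at log2 5. Tfrc, Gapdh, Pcx and the B1 repeat lay lower on every transgenic Treg array than on every transgenic effector array, and the 3′ probe set of Actb lay higher.

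The B1 repeat, a short interspersed element found in many mouse transcripts, read 13.54, 13.98 and 13.85 in transgenic effector cells, against 10.62, 10.13 and 10.01 in Treg cells. This was an 11.6-fold lower level in Treg cells (difference -3.54, standard error 0.24, limma adjusted p = 1.54e-07). The probe sets of the B2 repeat, another such element, did not give 1 answer. The first averaged 9.72 ± 0.15 in effector and 8.39 ± 0.06 in Treg cells (SD, n = 3, limma adjusted p = 0.000244). The second, near the top of the scale, averaged 15.44 ± 0.06 and 15.50 ± 0.02 (SD, n = 3, limma adjusted p = 0.519), and its difference of 0.06 became 0.36 after centring and -0.14 after quantile normalization. 18S ribosomal RNA, which lacks the poly(A) tail, moved the other way. Its middle probe set read 2.35, 2.38 and 2.44 on the effector arrays and 6.21, 6.92 and 6.32 on the transgenic Treg arrays (limma adjusted p = 0.00259). The 3′ and 5′ probe sets were also higher on the Treg arrays, by 2.75 and 3.52 (limma adjusted p = 0.0288 and 0.0259), but lost the call with quantile normalization (2.44 and 3.39, limma adjusted p = 0.0814 and 0.0505). The 3′ probe set also lost it without transgenic effector 1 or 2 or transgenic Treg 2 (differences of 2.32 to 2.67, limma adjusted p of 0.0681 to 0.0983), and the 5′ probe set without transgenic effector 1 or 2 or any 1 transgenic Treg array (differences of 3.36 to 3.64, limma adjusted p of 0.0507 to 0.0675). With the 6 transgenic arrays fitted alone the same differences had limma adjusted p of 0.000521 and 1.32e-05, and without C57BL/6 Treg 3 of 0.000985 and 0.000133. The C57BL/6 Treg arrays, which enter the shared estimate of spread, had SDs of 2.76 and 3.59 on these probe sets, against 0.74 and 0.29 for the transgenic Treg arrays. All transgenic effector arrays were at or below 4.18 on these probe sets. Whether ribosomal RNA in the Treg samples plays a part in the other differences was not tested.

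None of these control probe sets passed the test of a strain difference in its population difference (0 of 16 in the fit at a limma adjusted p under 0.05, and 1, the 3′ probe set of Actb, at an unadjusted p under 0.05). The transgenic minus C57BL/6 value for the 3′ probe set of Tfrc was 1.01 ± 1.07 (standard error, limma adjusted p = 0.756). That of Gapdh was -0.06 ± 0.13 (limma adjusted p = 0.906), that of Pcx 0.29 ± 0.21 (limma adjusted p = 0.614) and that of Actb -0.31 ± 0.13 (limma adjusted p = 0.311). The C57BL/6 populations differed by -3.85, -1.32, -2.28 and 0.69 on the same probe sets. The standard error of the Tfrc value was as large as the value itself. For 18S ribosomal RNA the test had little precision, since the 5′ probe set read 11.78, 9.05 and 4.66 on the C57BL/6 Treg arrays. Its strain value of -1.06 ± 1.78 (standard error, limma adjusted p = 0.856) became 0.58 without C57BL/6 Treg 1 and -2.98 without C57BL/6 Treg 3 (limma adjusted p = 0.858 and 0.0932).

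Of the 18271 tested probe sets, 12789 or 70.0% were called between the transgenic populations at a limma adjusted p under 0.05. Of all tested, 30.0% (5488) were higher and 40.0% (7301) lower in Treg cells. In C57BL/6 mice 73.8% were called. Over all tested probe sets the median difference was -0.21, and the arrays centred on their medians moved it to 0.087 and gave 6614 higher and 5796 lower, so the balance between the directions depends on the scale. The Tfrc, Gapdh and Pcx calls and that of the Actb 3′ probe set kept their direction on both scales. The median called difference was 2.90-fold, and 25.5% of the called probe sets were under 2-fold. The groups did not overlap in 73.9% of all tested probe sets and in 12472 of the called ones.

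At least 4-fold differences were called for 2374 probe sets (13.0%) with more signal in Treg cells and for 2042 (11.2%) with less, and at least 16-fold differences in 325 and 408. After centring the 4-fold counts were 2917 higher and 1577 lower. Many of these began below the filter level: all 3 effector arrays were under log2 5 in 1701 of the 2374, and all 3 Treg arrays in 865 of the 2042. Among the 13318 probe sets at or above log2 5 on all 6 transgenic arrays the balance was different, with 423 at least 4-fold higher and 1010 at least 4-fold lower in Treg cells. Their median difference was -0.39.

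Probe sets at or above log2 5 in 1 transgenic population alone were mostly dim. The level is a filter and not a test of presence, and a probe set could pass the filter through 1 group. On the Treg arrays of both strains 16558 to 16971 of 45037 probe sets reached the level, and on the effector arrays 15223 to 15370. In 1899 probe sets all Treg arrays were at or above log2 5 and all effector arrays below it, with a median Treg level of 6.21, and 5 of them averaged 10 or more. In 1009 probe sets the reverse held, with a median effector level of 6.51, and 21 averaged 10 or more. In the C57BL/6 arrays 1496 of the 1899 and 769 of the 1009 fell in the same class. How many of all tested probe sets fell in each class in C57BL/6 mice was not counted.

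**Figure D3:**
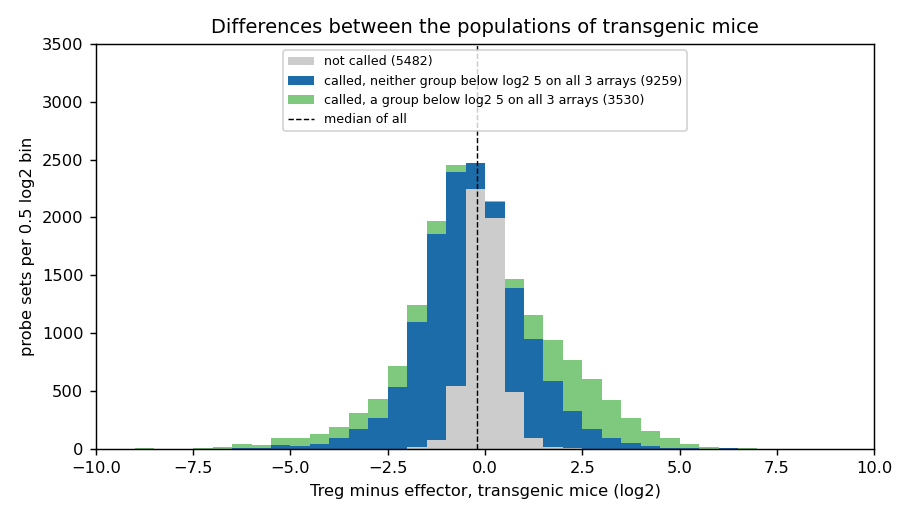
Number of probe sets (y) by Treg minus effector difference in transgenic mice (x, log2, bins of 0.5), split into 5482 not called, 9259 called with neither group below log2 5 on all 3 arrays, and 3530 called with such a group. The dashed line marks the median of -0.21, and the probe sets with a group below the level make up most of the right-hand side beyond a difference of 2.

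Among probe sets whose transgenic group means both reached log2 5, the largest differences were those of 1420700_S_AT and 1435529_AT upward and 1449911_AT and 1424278_A_AT downward in Treg cells. Probe set 1420700_S_AT read 6.28, 7.28 and 7.26 in transgenic effector cells, against 13.15, 12.79 and 13.16 in Treg cells (difference 6.10, standard error 0.23, limma adjusted p = 3.06e-09). Its C57BL/6 effector arrays lay higher, at 8.83 to 8.96, and its Treg arrays at 13.04 to 13.14, so its population difference was larger in transgenic mice by 1.89 (limma adjusted p = 0.0131). Probe set 1435529_AT varied more, from 3.72 to 6.58 in effector and from 10.58 to 11.65 in Treg cells (limma adjusted p = 2.51e-05). Its difference of 6.02 was 5.37 without transgenic effector sample 3. Probe set 1449911_AT read 12.31, 12.54 and 12.39 in effector cells, against 5.02, 5.52 and 5.04 in Treg cells (difference -7.22, standard error 0.39, limma adjusted p = 3.23e-08). Probe set 1424278_A_AT averaged 12.98 ± 0.17 and 6.36 ± 0.76 (SD, n = 3, limma adjusted p = 1.88e-08). None of the 3 latter probe sets passed the test of a strain difference (limma adjusted p = 0.569, 0.666 and 0.114).

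Most of what separated the populations in normal mice separated them in transgenic mice too. With each strain fitted on its own 6 arrays, so that no array served both strains, 2374 probe sets were at least 4-fold higher in transgenic Treg cells and 2711 in C57BL/6 Treg cells. The 2091 in both made up 88.1% of the transgenic and 77.1% of the C57BL/6 list. Of the probe sets at least 4-fold lower in Treg cells, 2043 in transgenic and 2369 in C57BL/6 mice, 1741 were shared, or 85.2% and 73.5%. Only 2 probe sets were at least 4-fold apart in opposite directions. Across all tested probe sets the population differences of the strains correlated at 0.938, a description over probe sets that share the culture and the provider's codes. Median absolute differences were 1.09 in transgenic and 1.21 in C57BL/6 mice.

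The population difference itself differed between strains in 413 probe sets, 2.26% of those tested, with 1.52% lower and 0.744% higher in transgenic mice. The populations differed in the same direction in both strains in 275 of them, where the gap between Treg and effector cells was narrower in transgenic mice in 167 and wider in 108. In the other 138 the differences had opposite signs. After centring the counts were 185 narrower, 105 wider and 140 of opposite sign. Of the 167 narrower ones, 102 were higher in Treg cells and 65 in effector cells. Of the 108 wider ones, 36 were higher in Treg cells and 72 in effector cells. In 98 of the 413 the populations were called different in C57BL/6 but not in transgenic mice, and in 73 the reverse held. In 52 they were called different in the direction opposite to C57BL/6. Over all 18271 tested probe sets 1903 were called in C57BL/6 only, 1217 in transgenic mice only and 67 in opposite directions. Without 1 array the 413 became 247 (C57BL/6 effector 1 or transgenic Treg 1), 251 (C57BL/6 effector 2), 214 (C57BL/6 Treg 2) or 261 (transgenic Treg 3). Leaving out any other single array gave 287 to 433. The count was 2529 with array weights, 1267 higher and 1262 lower in transgenic mice, and 216 with the replicate number as a block, 67 higher and 149 lower. The count thus depends on the model. The share higher was 32.9% in the main fit, 31.0% with the block and 50.1% with array weights. The replicate numbers were not taken as pairs.

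**Figure D4:**
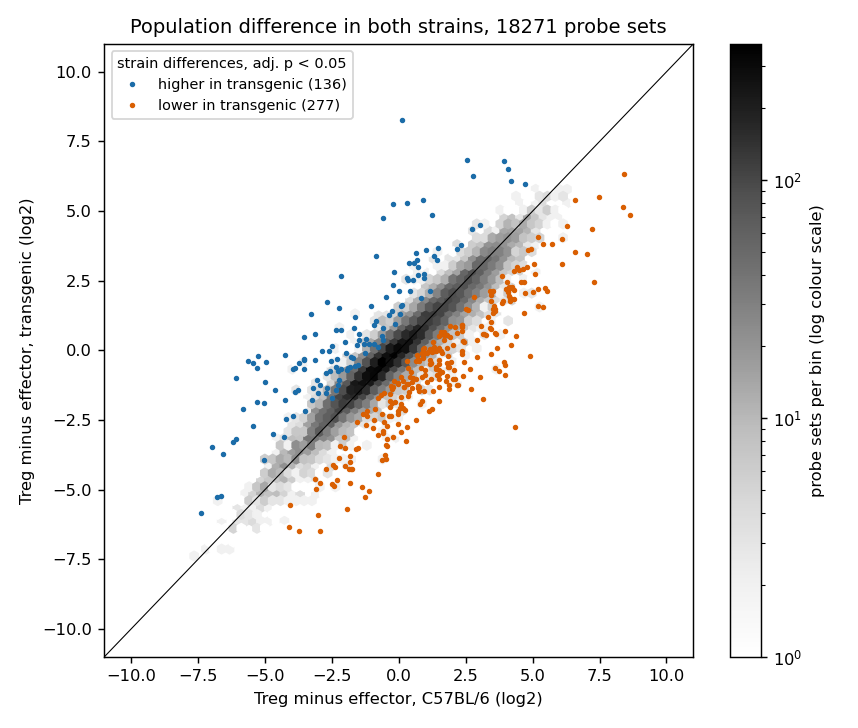
Treg minus effector difference in C57BL/6 (x) and transgenic mice (y), log2, for all tested probe sets (grey bins, log colour scale), with the 136 probe sets whose difference was higher in transgenic mice in blue and the 277 lower in orange, and the line of equality. The bulk of the probe sets follows the line, with a correlation of 0.938, and the coloured points lie off it in both directions.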

How the data were processed

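Affymetrix mouse arrays were read for CD4+ CD25+ spleen T cells, amplified by in vitro transcription once, per the labels' protocols. The deposited log2 values were made by the authors with GCRMA, per the submitters' processing notes. The sources used here give neither its version nor whether both populations were normalized together. Effector arrays had minima of 0.296 to 0.325, against 0.942 to 0.957 for Treg arrays, so levels set across populations may carry a scale difference.

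Of 45101 probe sets, 64 control probe sets were left out and 18271 of the rest were tested because they reached log2 5 on at least 3 of 12 arrays. With limma 3.58.1 in R 4.3.3, all 12 arrays entered 1 linear model of 4 groups (eBayes with trend), with Benjamini-Hochberg adjustment over all tested probe sets and calls at an adjusted p under 0.05. The same fit with 16 named control probe sets added, chosen after the data were seen, gave their values. The number of arrays limits the precision.

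The arrays compared, the gene lists and the rules were chosen with earlier results of these data known. Gene-level counts, gene lists, cell type markers and promoter counts for lists were planned but need gene names for probe sets, and the tables used here do not pair them. The rule for named probe sets took the largest differences among called probe sets whose groups did not overlap and whose means reached log2 5, shortened to 2 in each direction, and for the strain comparison the 2 largest called values in each direction. Alternatives were other scalings, filters, variance models, array weights, a replicate block, thresholds, the 6 transgenic arrays alone and leaving out each array. Figures were drawn with matplotlib 3.10.9.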

Additional observations from a re-analysis of the deposited data

Results flagged for a closer look

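The Treg minus effector difference was tested between strains, and 413 probe sets passed (limma adjusted p under 0.05). The largest value was that of 1433942_AT, at 8.16 (limma adjusted p = 0.00109). It read 2.58, 3.36 and 2.38 in transgenic effector cells and 10.81, 10.93 and 11.37 in transgenic Treg cells, a wide gap that C57BL/6 mice did not show (5.83 ± 1.51 and 5.93 ± 0.88, SD, n = 3). The transgenic effector values lie below log2 5, so the size of the gap depends on the background correction. The Treg arrays of the strains also stood apart, with 5.48, 5.37 and 6.95 on the C57BL/6 Treg arrays. Probe set 1449109_AT had a value of 5.47 (limma adjusted p = 0.000502), with 5.46, 5.37 and 4.03 in transgenic effector cells against 9.94 to 10.50 in transgenic Treg cells, while both C57BL/6 populations lay between 9.65 and 10.74. Without transgenic effector sample 3 its value was 5.01.

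Probe set 1450357_A_AT had a value of -7.10 (limma adjusted p = 1.25e-06). It was higher in effector cells of transgenic mice (9.75 ± 0.18 against 6.98 ± 0.31 in Treg cells, SD, n = 3) and higher in Treg cells of C57BL/6 mice (8.90 ± 0.08 against 4.57 ± 0.40). Probe set 1416111_AT had a value of -5.11 (limma adjusted p = 0.00727). Its transgenic populations averaged 9.10 ± 1.28 and 8.88 ± 0.15 and were not called different (limma adjusted p = 0.751), whereas C57BL/6 Treg cells exceeded effector cells by 4.90. Transgenic effector sample 3 read 10.56 there, against 8.53 and 8.20 on the other effector arrays, and without it the value was -4.38.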

How the results depend on the processing

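The count of probe sets called between the transgenic populations was 12789. It was 31397 without a filter, where 45037 probe sets were tested, stayed within 1.5 times of 12789 under the other alternatives run, and ranged from 11769 to 13299 with 1 array left out. The 4-fold count of 4416 was 2679 with a filter at log2 7, where 13611 were tested, and ranged from 4266 to 4566 with 1 array left out. The count of 413 for the strain difference was 2529 with array weights, of which 1267 were higher and 1262 lower, 150 at an adjusted p under 0.01, and 214 to 433 with 1 array left out. With the replicate number as a block within each strain it was 216, of which 202 were among the 413, and the transgenic count was 12436. Deviations of same-numbered transgenic arrays correlated at -0.066, -0.11 and -0.16, so the numbers were not taken as pairs. For the counts under array weights and the block, the cause was not tested. The 4 probe sets named for the transgenic difference kept their direction and call in all 84 alternative fits in which they were measured. Those of the control probe sets did so in 320 of 336, the exceptions being 18S ribosomal RNA, Actb and a B2 repeat. For the strain difference of the control and of the 4 probe sets named for it, 388 of 400 alternative values kept direction and call. The other 12 were changes of sign in values that were not called. None of the 16 control probe sets had a call for the strain difference in the main fit. For them, keeping the call means only that they stayed uncalled, so their part of the count does not show that a called difference was stable. Gene-level alternatives were not run, for want of gene names. Signals below log2 5 limit the size of the larger folds.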
